A study of Mus musculus with 24 samples.

Results

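Cells of the mouse microglial line SIM-A9 were exposed for 2 h to the voltage dye DiBASC2, and their poly-A RNA was compared with that of untreated cells of the line. The comparison set 3 libraries of DiBASC2 against 3 of control, 6 of the 24 in the series, taken by their sample titles. A filter on low counts, which 13116 genes passed, the scaling and the estimate of spread used all 24 libraries. The other libraries held the voltage dye Di-2-ANEPEQ, the calcium dye Fura-2, an adeno-associated virus (AAV), 2 kinds of carbon nanotube and lipopolysaccharide (LPS), a positive control for inflammation. All cells were kept without serum for 2 h before the probe was added. The titles spell the dye DiBASC2 and the columns of the count table DiSBAC2, and the treatment label ends in a different digit in each of the 3 libraries. The dye's concentration, and whether the untreated wells received its carrier, are not given in the sources used here, so an effect of the carrier cannot be told apart from that of the dye. The labels do not say whether the 3 libraries of a group came from separate cultures, so p-values measure only the spread between these libraries.

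DiSBAC2 is an oxonol, a negatively charged dye that enters cells more as their membrane depolarizes and is used to follow slow changes of membrane potential. Microglia are the resident macrophages of the brain. When they are stimulated, the transcription factor NF-kB and the ERK kinase cascade switch on a rapid programme of transcription. NF-kB drives chemokines, cytokines and its own inhibitors, and ERK drives the immediate early genes and the phosphatases that shut ERK down again. FoxO factors work in the other direction on growth signals: they are held in the cytoplasm by the kinase AKT and, when free, raise genes of growth arrest and cell death.

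Total counts lay between 22680902 and 27593552 in the DiBASC2 libraries and between 18176305 and 23155577 in control. Replicates correlated at r from 0.9976 to 0.9980 across genes, which are not independent replicates. In a chi-square comparison of counts, summed over genes, DiBASC2 replicate 1 stood apart from replicates 2 and 3. The values were 15.1 and 15.5 per degree of freedom against 4.15 between those and 3.65 to 5.25 in control. All 12 microglia and macrophage markers were expressed, with a summed level of 2453 to 2511 CPM (read counts scaled to library size) in DiBASC2 and 2412 to 2471 in control, and edgeR called 0 of them (0 also at an unadjusted p under 0.05, and 0 in DESeq2). The summed markers of astrocytes, neurons, fibroblasts and T cells stayed at or below 0.705 CPM in every library of both groups. Those of oligodendrocytes summed to 4.46 to 5.70 CPM in DiBASC2 and 4.13 to 5.23 in control. Those of endothelium summed to 122 to 144 and 128 to 139 CPM, nearly all of it Kdr, a receptor of vascular growth factor, which was not called (−0.04, adjusted p 0.716), while Cldn5 was at 0 in all 6 libraries. Mitochondrial genes took 1.59 to 1.78% of the counts in DiBASC2 and 1.54 to 1.72% in control. Among these 6 libraries DiBASC2 replicate 1 stood apart in Gm42418, a gene that overlaps ribosomal RNA sequence. It took 1.54% of the counts there, against 0.593 and 0.596% in replicates 2 and 3 and 0.668 to 1.15% in control. Over all 24 libraries the share of Gm42418 lay between 0.369 and 1.68%. This abundant gene is part of the chi-square sums above, and its share in them was not separated. Those sums therefore do not show that replicate 1 differed in many genes.

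DiBASC2 lowered more genes than it raised, and most changes were small. A gene was called when its Benjamini-Hochberg adjusted p in edgeR's quasi-likelihood test was under 0.05. On this rule 717 genes were called, 5.47% of those tested. Of these, 478 were lower (3.64%) and 239 higher (1.82%). The median log2 fold change was −0.22 among the lower and 0.31 among the higher genes. Changes of at least 0.5 on the log2 scale were found for 40 lower and 35 higher genes, and changes of at least 1 for 2 lower and 9 higher genes. Apart from Cxcl2, the genes that changed by at least 1 were near the floor of detection. They lay at or below 1.87 CPM in all 6 libraries, with adjusted p-values of 0.0219 to 0.0460. The 3 DiBASC2 and 3 control libraries did not overlap in 702 of the 717 called genes, against 22.6% of all genes tested. The count depended on single libraries, falling to 333 without control replicate 1 (241 lower and 92 higher) and to 459 without DiBASC2 replicate 3. It was 538 without DiBASC2 replicate 1, with 372 lower and 166 higher. The split between directions depended on the scaling: 33.3% of called genes were higher with TMM factors and 54.9% with upper-quartile factors, under which the median of all genes moved from −0.002 to 0.026.

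**Figure D1:**
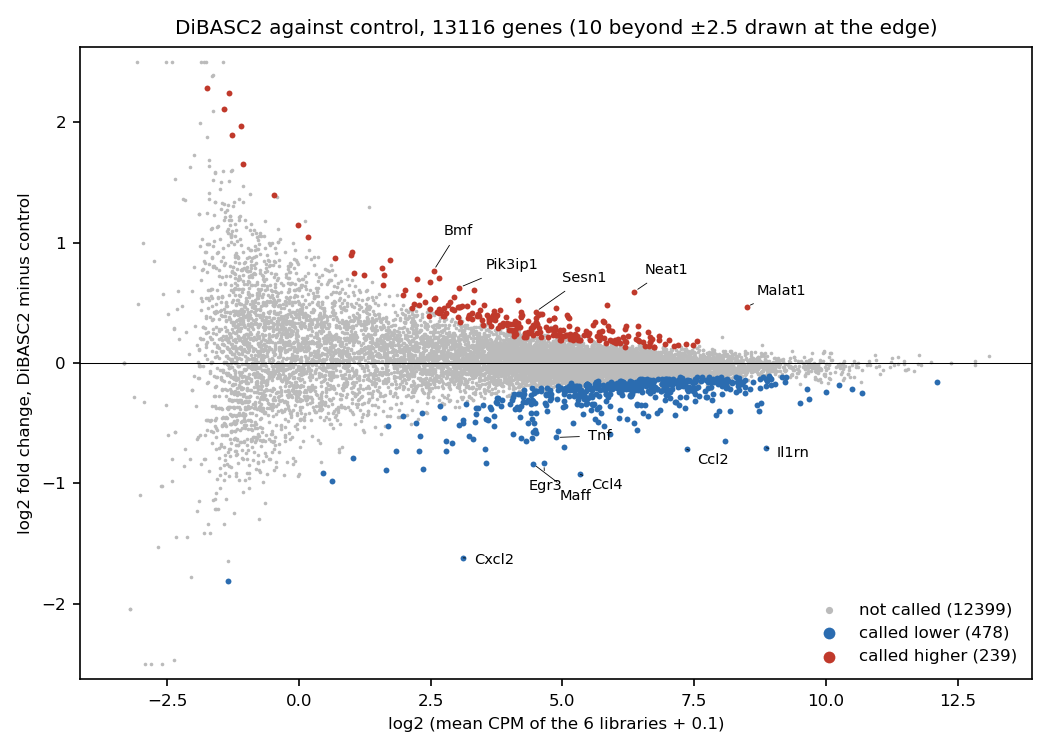
Log2 fold change of DiBASC2 minus control (y axis) against the log2 of mean CPM over the 6 libraries plus 0.1 (x axis) for each of the 13116 genes tested. Blue points are the 478 genes called lower and red points the 239 called higher; Cxcl2, at −1.62, has the lowest value among called genes with a mean of at least 5 CPM.

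The lowered and the raised genes differed in level and structure. Called lower genes had a median of 79.8 CPM in control, called higher genes 19.0 and all genes tested 26.1. The median exonic length was 4359 bases for lower, 5505 for higher and 4013 for all genes, and the median GC content 48.0, 52.0 and 49.4%. When each library was corrected for gene length and GC content, an alternative added after the data were seen, 897 genes were called, 591 lower and 306 higher. Protein-coding genes made up 464 of the lower and 223 of the higher genes.

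Secreted inflammatory mediators had the lowest median of the gene lists. Of 28 tested members of that list 13 were called lower (46.4%, against 3.64% of all genes) and 0 higher. The median log2 fold change was −0.38 against −0.002 over all genes. This list and the others were chosen with earlier results of these data known. Some promoters of the lowered genes carry the motif bound by NF-kB in the bases before their start, and others do not: in the RefSeq table those of Tnf, Il1b, Il1rn, Ptgs2, Traf1 and Zfp36 hold 0 matches, while Fos, which was not called, and Zbtb4, which was higher, hold 1 each. The promoters of Cxcl2, of the NF-kB inhibitor Nfkbia and of the early response gene Ier3 are printed because these genes were called lower and hold a match in RefSeq's GRCm38.p6 promoter table. The Cxcl2 stretch is chr5:90903649-90903870 on the plus strand, that of Nfkbia chr12:55492648-55492897 on the minus strand and that of Ier3 chr17:35821463-35821683 on the plus strand. Capitals mark the matches, and Cxcl2 holds 2 that overlap.
Cxcl2: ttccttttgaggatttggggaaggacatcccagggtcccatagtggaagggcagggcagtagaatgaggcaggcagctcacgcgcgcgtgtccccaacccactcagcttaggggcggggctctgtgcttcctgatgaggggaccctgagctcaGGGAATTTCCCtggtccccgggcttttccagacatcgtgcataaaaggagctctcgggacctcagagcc
Nfkbia: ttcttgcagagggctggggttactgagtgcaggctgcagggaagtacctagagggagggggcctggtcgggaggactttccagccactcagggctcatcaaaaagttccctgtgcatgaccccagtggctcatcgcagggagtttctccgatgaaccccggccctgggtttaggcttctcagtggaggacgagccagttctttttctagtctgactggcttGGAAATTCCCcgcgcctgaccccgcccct
Ier3: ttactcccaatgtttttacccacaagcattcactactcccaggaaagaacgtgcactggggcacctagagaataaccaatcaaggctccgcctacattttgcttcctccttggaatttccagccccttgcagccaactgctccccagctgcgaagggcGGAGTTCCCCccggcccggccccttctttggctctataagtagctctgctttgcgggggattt
The NF-kB motif, searched on both strands in the 250 bases before the start, was present in 29 of 376 lower genes (7.71%), in 7 of 189 higher genes (3.70%) and in 410 of the 9389 tested genes with a promoter in the table (4.37%). The AP-1 motif (TGANTCA) was present in 6.91% of lower, 4.76% of higher and 4.29% of all promoters. The CArG box, the site of serum response factor, was present in 2.66, 1.06 and 1.02%. The cAMP response element (TGACGTCA) was present in 2.66, 0.529 and 2.87%, and the FoxO motif (GTAAACA) in 2.66, 3.17 and 2.07%. Bmf, Pik3ip1, Ccng2 and Sesn1, raised genes on the list of FoxO targets, hold 0 FoxO matches each. Fbxo32, also raised and on that list, has no promoter in the table, and Mdm2, which was lower, holds 1 match. No test was made of these shares, and a match in a window is a description of its letters only.

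Chemokines led the lowered genes. Cxcl2 (ENSMUSG00000058427.10, chr5:90903871-90905938), a chemokine that draws neutrophils, was at 4.95, 3.84 and 3.77 CPM in the DiBASC2 libraries and at 15.2, 11.3 and 12.5 in control. Its log2 fold change was −1.62 ± 0.13 (SE, adjusted p 1.73e-10). Ccl4 (ENSMUSG00000018930.3, chr11:83662584-83664683), a chemokine of macrophages, was at 27.8, 28.3 and 27.7 CPM against 59.0, 53.9 and 46.2. Ccl2 (ENSMUSG00000035385.5, chr11:82035571-82037453), which draws monocytes, was at 127, 132 and 113 CPM against 219, 198 and 194. The changes were −0.93 ± 0.10 for Ccl4 (adjusted p 4.95e-08) and −0.72 ± 0.07 for Ccl2 (2.87e-09). The 12 lowest and 12 highest named genes were chosen to have no overlap between DiBASC2 and control libraries. Their separation is therefore no further support. Ccl3, a close relative of Ccl4, was also called lower, at 215, 208 and 214 CPM against 358, 332 and 310 (−0.65, adjusted p 1.37e-08). Ccl7 and Cxcl10 passed the test at lower levels, with adjusted p-values of 0.0316 and 0.0499. Ccl7 lost its call without any 1 of the 6 libraries and Cxcl10 in 7 of 14 alternatives (adjusted p up to 0.175 and 0.251).

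The interleukin-1 genes Il1a and Il1b fell, as did their antagonist. Il1rn (ENSMUSG00000026981.15, chr2:24336853-24351494), which encodes the antagonist of the interleukin-1 receptor, was at 344, 363 and 360 CPM against 672, 539 and 529 in control (−0.70 ± 0.08, adjusted p 4.90e-08). Il1b was at 6.15, 5.67 and 5.48 CPM against 9.18, 9.96 and 8.22 (−0.67 ± 0.11, adjusted p 0.000192), and it shares exonic bases with the opposite-strand gene Il1bos. Il1a was at 8.02, 7.14 and 7.87 CPM against 12.1, 13.1 and 9.99 (−0.63, adjusted p 0.000138). The groups did not overlap for Il1a, while Il1rn and Il1b were chosen to have no overlap. The differences between the changes of the 3 genes were not tested. Tnf, the tumour necrosis factor gene, was at 22.9, 22.6 and 24 CPM against 37.0, 35.1 and 34.6 (−0.62 ± 0.06, adjusted p 2.74e-09). Ptgs2, which encodes the inducible cyclooxygenase of prostaglandin synthesis, was at 24.8, 25.7 and 24.6 CPM against 43, 40.2 and 38.4 (−0.69 ± 0.06, adjusted p 1.10e-09). The groups did not overlap for Tnf, and Ptgs2 was among the genes chosen to have no overlap. Osm, an interleukin-6 family cytokine, and Csf1, the growth factor of macrophages, were also called lower (−0.56, adjusted p 8.49e-07, and −0.40, adjusted p 3.18e-08).

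Not every mediator changed. Il18, another cytokine of the interleukin-1 family, was at 3.49, 4.15 and 3.29 CPM against 3.63, 3.23 and 2.62 (0.21 ± 0.18, adjusted p 0.573). Tgfb1, an immunosuppressive cytokine, was at 255, 239 and 233 CPM against 238, 250 and 245 (−0.01, adjusted p 0.923). Ccl9 was at 42.4, 43.2 and 41.3 CPM against 48.7, 45.4 and 42.8 (−0.11, adjusted p 0.462), and Nos2, the inducible nitric oxide synthase, stayed between 1.16 and 2.04 CPM in all 6 libraries. Il6 lay between 0.170 and 0.257 CPM, too few counts to show a change. Il12b had 0 counts in all 6 libraries, and Il10 and Csf3 had at most 2 in any of them. These genes count as tested because the low-count filter covered all 24 libraries. Of 25 tested interferon-stimulated genes edgeR called 0 in either direction (median −0.05), and DESeq2 also called 0; before adjustment, p was under 0.05 for 2 genes that were higher and for 1 that was lower. The LPS libraries give the scale of these levels: Cxcl2 averaged 1175 ± 83.1 CPM (SD, n = 3) in LPS, 13 ± 1.97 in control and 4.18 ± 0.663 in DiBASC2.

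**Figure D2:**
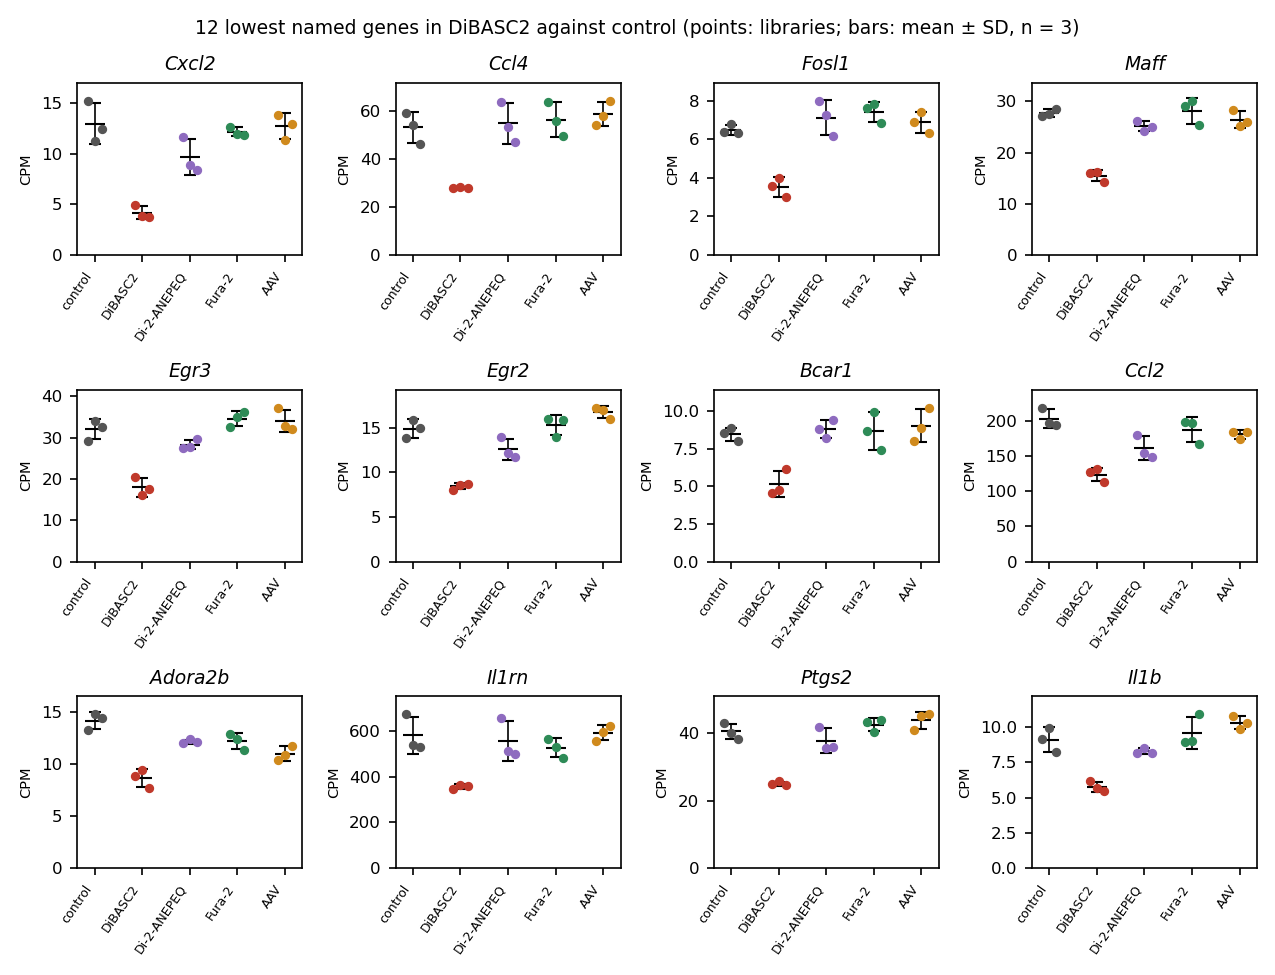
CPM (y axis, from 0) of the 12 lowest named genes in the 3 libraries each of control, DiBASC2, Di-2-ANEPEQ, Fura-2 and AAV (x axis). Points are libraries and bars the mean ± SD (n = 3). In all 12 genes every DiBASC2 point lies below every point of the other 4 groups, which for control was a condition of the choice.

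Genes of the NF-kB circuit were lowered as well. Of 27 tested subunits, inhibitors and targets 14 were called lower (51.9%, against 3.64% of all genes) and 1 higher (3.70%, against 1.82%). The median was −0.17, and without DiBASC2 replicate 3 the lower count was 9. Ier3 was at 45.8, 52.6 and 45 CPM against 77.9, 69.4 and 68.9 in control (−0.59 ± 0.06, adjusted p 2.42e-08). Nfkbia, which encodes the inhibitor that NF-kB induces to hold itself in the cytoplasm, was at 90.8, 81.6 and 76.6 CPM against 110, 115 and 113 (−0.44 ± 0.05, adjusted p 7.05e-08). Tnfaip3, which encodes the ubiquitin-editing inhibitor A20, was at 19.0, 19.2 and 17.6 CPM against 23.7, 23.6 and 23.3 (−0.34 ± 0.07, adjusted p 0.000852). In these genes too the groups did not overlap. Traf1, an adaptor of TNF receptors, changed by −0.50 ± 0.08 (adjusted p 4.86e-05), and Nfkbiz, a nuclear cofactor of NF-kB, by −0.36 ± 0.07 (0.000701). Zfp36, which encodes a protein that destabilizes cytokine mRNAs, changed by −0.38 ± 0.07 (0.000197), while its relative Zfp36l1 was the single gene called higher (0.24, adjusted p 0.0427, lost in 4 of 14 alternatives). Zfp36 shares exonic bases with Gm44710 on the opposite strand. Among the subunits themselves, Relb, Rel and Nfkb2 were called lower, at −0.22, −0.18 and −0.17, and lost the call in 2, 7 and 5 of 14 alternatives. The subunit genes Rela (−0.03, adjusted p 0.797) and Nfkb1 (−0.06, adjusted p 0.407) were not called.

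The immediate early genes, most of which encode transcription factors made within minutes of a stimulus, were lowered as a group with exceptions. Of 25 tested members 16 were called lower (64.0%, against 3.64% of all genes) and 0 higher (median −0.24). Maff, which encodes a small MAF protein, was at 16.1, 16.2 and 14.2 CPM against 27.1, 27.6 and 28.5 (−0.84 ± 0.07, adjusted p 8.06e-10). Egr3 was at 20.5, 16 and 17.5 CPM against 29.3, 34 and 32.7 (−0.83 ± 0.08, adjusted p 8.10e-09). Egr2 was at 8.02, 8.55 and 8.64 CPM against 13.8, 15.9 and 14.9 (−0.83 ± 0.08, adjusted p 7.65e-09). The fitted change was −44.0% for Maff, −43.9% for Egr3 and −43.6% for Egr2. Fosl1, an AP-1 subunit whose exons overlap Ccdc85b on the opposite strand, was at 3.56, 4.01 and 3 CPM against 6.37, 6.81 and 6.35 (−0.88 ± 0.13, adjusted p 1.26e-05). Arc changed by −0.61 ± 0.10 (adjusted p 0.000118) and the AP-1 subunits Fosl2 and Junb by −0.49 (2.47e-09) and −0.42 (1.21e-05). Srf, which encodes serum response factor, was at 86.3, 83.5 and 80.4 CPM against 106, 108 and 106 (−0.35, adjusted p 5.81e-07). Fos, the best known member, was not called: it was at 12.9, 12 and 11.8 CPM against 13.5, 14 and 10.8 (−0.07 ± 0.09, adjusted p 0.770), and the groups overlapped.

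Genes on the list named for feedback on ERK were lowered in part, and these data do not show that each member acts on ERK. Of 16 tested members 5 were called lower (31.2%, against 3.64% of all genes) and 0 higher (median −0.19). Dusp2, which encodes a nuclear phosphatase of MAP kinases, was at 16.3, 16.9 and 16.9 CPM against 27.3, 24.2 and 25.8 (−0.62 ± 0.06, adjusted p 1.55e-08). The phosphatase genes Dusp16, Dusp5 and Dusp4 changed by −0.35 ± 0.06 (adjusted p 6.76e-05), −0.27 ± 0.06 (0.00354) and −0.21 ± 0.04 (0.00211). Dusp1 was at 9.41, 7.46 and 7.19 CPM against 8.96, 8.43 and 11.2 and was not called (−0.24 ± 0.11, adjusted p 0.224). Dusp6, a target of ERK, was not called either (0.01, adjusted p 0.974), nor were Spred1 (−0.07, adjusted p 0.288) and Ccnd1 (−0.01, adjusted p 0.925). The lowered members of this list were therefore a subset of the phosphatases plus Errfi1 (−0.21, adjusted p 0.0324), an inhibitor of EGF receptor signalling, whose call was lost in 8 of 14 alternatives.

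Several receptors of extracellular signals changed, in both directions. Of 25 tested G protein-coupled receptors and RGS proteins, which switch G proteins off, 5 were called lower and 3 higher (median 0.04). Over all genes 3.64% were called lower and 1.82% higher. Adora2b, an adenosine receptor, was at 8.85, 9.40 and 7.70 CPM against 13.3, 14.8 and 14.5 (−0.71 ± 0.08, adjusted p 2.24e-07). C5ar1, the receptor of complement C5a, was at 45.8, 46.4 and 43.9 CPM against 60.7, 60.6 and 60.2 (−0.41 ± 0.05, adjusted p 2.24e-07). Gpr84, a receptor of medium-chain fatty acids, changed by −0.41 ± 0.05 (adjusted p 2.28e-06). The raised receptor was S1pr1, which binds sphingosine-1-phosphate, at 21.4, 20.5 and 21.7 CPM against 15.2, 16.4 and 15.5 (0.43 ± 0.08, adjusted p 0.000428). Cnr2, the cannabinoid receptor of immune cells, and Rgs2 were also called higher (0.25, adjusted p 0.0120, and 0.25, adjusted p 0.00601), and lost the call in 3 and 1 of 14 alternatives. Bcar1, a scaffold of adhesion signalling and the only one of the 12 lowest genes on none of the lists, was at 4.54, 4.75 and 6.12 CPM against 8.52, 8.85 and 8.01 (−0.73 ± 0.13, adjusted p 0.000289).

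Cholesterol synthesis and uptake was lowered broadly and by small amounts. These genes are driven by SREBP-2 when sterols are scarce. Of 21 tested members 14 were called lower (66.7%, against 3.64% of all genes) and 0 higher (median −0.18). The lower count was 9 without control replicate 1. Cyp51, a sterol demethylase, was at 370, 372 and 357 CPM against 475, 458 and 465 (−0.35 ± 0.04, adjusted p 3.18e-08), and shares exonic bases with Akap9 on the opposite strand. The groups did not overlap for Cyp51. Insig1, whose product retains the SREBP complex, and Hsd17b7 changed by −0.28 ± 0.04 (adjusted p 5.95e-06) and −0.30 ± 0.05 (0.000408). Srebf2, which encodes SREBP-2 itself, was at 360, 359 and 372 CPM against 363, 376 and 379 and was not called (−0.04, adjusted p 0.645).

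The raised genes included targets of FoxO factors. Of 22 tested members of that list 7 were called higher (31.8%, against 1.82% of all genes) and 0 lower (median 0.12). The higher count was 3 without control replicate 1 and also 3 without control replicate 2. Bmf (ENSMUSG00000040093.15, chr2:118528757-118549687), which encodes a BH3-only protein that promotes apoptosis, was at 6.90, 7.36 and 7.62 CPM against 3.90, 4.51 and 4.38 in control. It had the largest increase among the named genes with a mean of at least 5 CPM (0.77 ± 0.15, adjusted p 0.000976). Only genes without overlap between the groups could enter that ranking. Pik3ip1, an inhibitor of PI3 kinase, was at 9.63, 8.55 and 11.5 CPM against 6.04, 6.13 and 7 (0.63 ± 0.16, adjusted p 0.0138). Its call was lost without DiBASC2 replicate 3, control replicate 1 or control replicate 2, at an adjusted p of up to 0.0961, and its exons overlap Gm12592 on the opposite strand. Sesn1, which restrains the growth kinase mTORC1, was at 26.9, 24.2 and 26 CPM against 19.5, 19.7 and 18.0 (0.43 ± 0.07, adjusted p 0.000101). Ccng2, an unusual cyclin of cell cycle arrest, was at 11.4, 12.2 and 10.9 CPM against 7.91, 8.30 and 8.12 (0.51 ± 0.11, adjusted p 0.00484). Fbxo32, a ubiquitin ligase subunit that overlaps Gm15943 on the opposite strand, changed by 0.70 ± 0.18 (adjusted p 0.0127) and lost its call without DiBASC2 replicate 2, control replicate 1 or control replicate 2, at an adjusted p of up to 0.123. Foxo1 itself and Ddit4 were called higher (0.24, adjusted p 0.0356, and 0.40, adjusted p 0.0215), and lost the call in 8 and 4 of 14 alternatives. Of the other FoxO genes, Foxo3 (0.04, adjusted p 0.778) and Foxo4 (0.14, adjusted p 0.158) were not called, nor were the targets Bcl2l11 (−0.13, adjusted p 0.185) and Cdkn1b (0.08, adjusted p 0.618).

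Of 359 tested lincRNAs 4 were called higher and 2, Snhg12 (−0.38) and Snhg6 (−0.27), lower. Over all genes tested 1.82% were called higher and 3.64% lower, so lincRNAs were called less often in either direction. The abundant nuclear RNAs Neat1 and Malat1 were among the higher lincRNAs. Neat1 (ENSMUSG00000092274.3, chr19:5824708-5845478), the RNA scaffold of paraspeckles, was at 98.0, 92.2 and 107 CPM against 71.2, 65.8 and 59.5 in control (0.59 ± 0.08, adjusted p 1.02e-06), and its exons overlap the small annotated genes Gm27505, Gm27533 and Gm28006. Malat1, its neighbour on the chromosome and an RNA of nuclear speckles, was at 494, 370 and 390 CPM against 294, 300 and 313 (0.47, adjusted p 0.0238). It was chosen after its values were seen. The highest Malat1 level was in DiBASC2 replicate 1, the library with the high Gm42418 share, and without that library the change was 0.32 (adjusted p 0.188). The call was also lost without any 1 of the control libraries and in DESeq2's test, at adjusted p-values from 0.0518 to 0.112. The part of ribosomal RNA carry-over in this result was not tested. For Neat1 the log2 fold change lay between 0.53 and 0.66 in all 14 alternatives, and the call held in each.

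**Figure D3:**
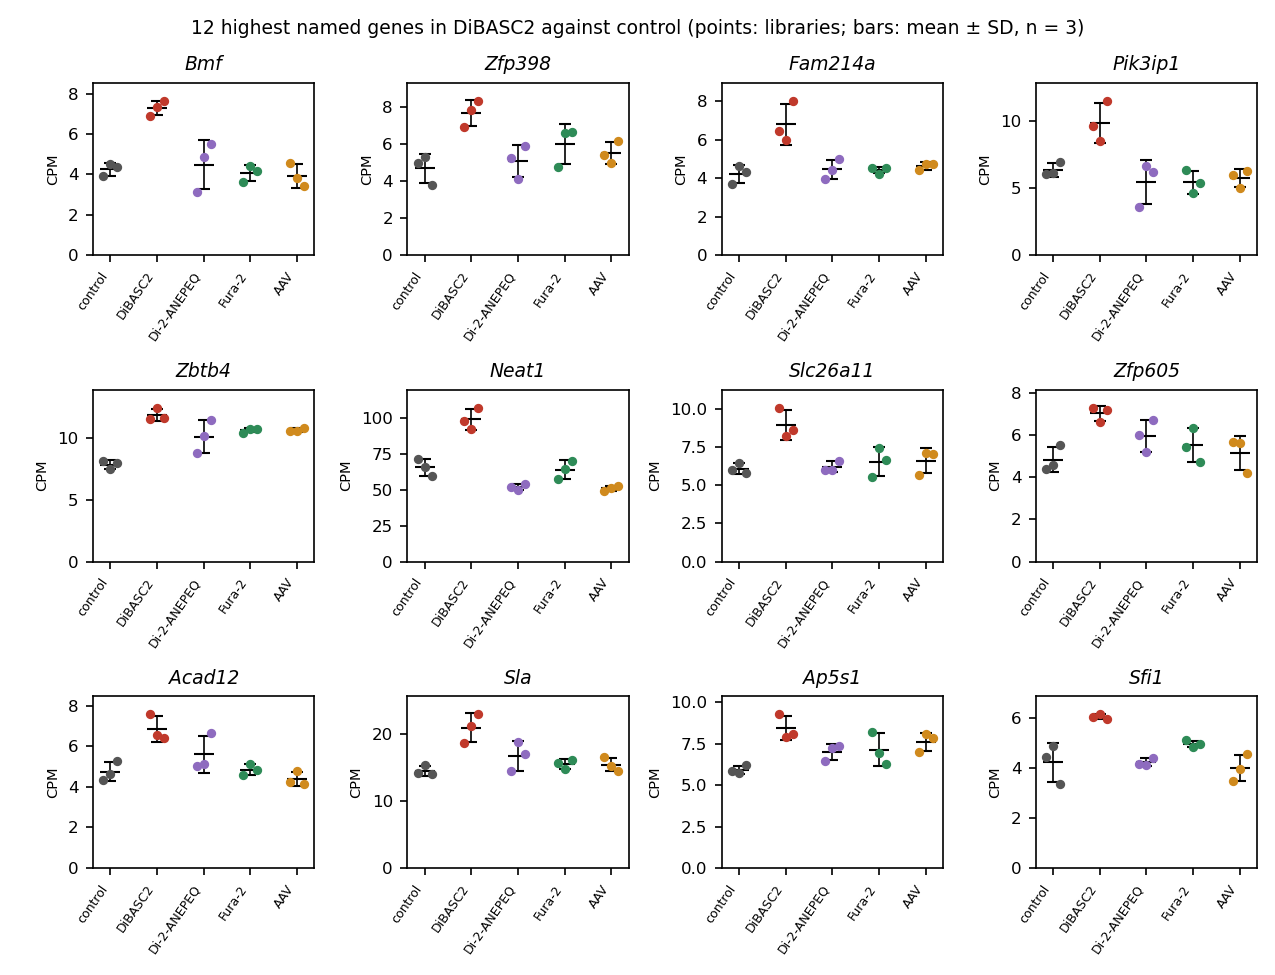
CPM (y axis, from 0) of the 12 highest named genes in the 3 libraries each of control, DiBASC2, Di-2-ANEPEQ, Fura-2 and AAV (x axis). Points are libraries and bars the mean ± SD (n = 3). The DiBASC2 libraries of Bmf (6.90 to 7.62 CPM) and Neat1 (92.2 to 107) lie above all others shown. Those of Ap5s1 overlap Fura-2 and AAV, and those of Zfp605, Acad12 and Sla overlap Di-2-ANEPEQ. No overlap with control was a condition of the choice.

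Zinc finger genes gave the largest number of raised genes of any list, from the largest list. Of 313 tested genes with a Zfp name, most of them transcription factors with tandem zinc fingers, 17 were called higher (5.43%, against 1.82% of all genes) and 2 lower (median 0.09). The higher count was 10 without DiBASC2 replicate 3 and 8 without control replicate 1. The list is set by name only: Zfp36 and Zfp36l1, described above, bind RNA. Zfp398 was at 6.93, 7.85 and 8.30 CPM against 4.95, 5.32 and 3.79 (0.70 ± 0.16, adjusted p 0.00648), and its adjusted p was 0.0616 without control replicate 3. Zfp61 was at 4.42, 4.12 and 3.94 CPM against 2.09, 2.43 and 2.35 (0.86 ± 0.20, adjusted p 0.00619). Zfp362 was at 11.7, 13 and 14.9 CPM against 9.23, 9.15 and 9.93 (0.48 ± 0.11, adjusted p 0.00325). The groups did not overlap for Zfp61 and Zfp362, and Zfp398 was chosen to have no overlap. These 3 genes lay between 2.09 and 14.9 CPM, where counting error is larger. Zbtb4, a zinc finger repressor that binds methylated DNA and is not on the list, was at 11.5, 12.4 and 11.6 CPM against 8.08, 7.45 and 7.96 (0.60 ± 0.09, adjusted p 3.32e-05).

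Further raised genes were on none of the lists, or on that of clock genes. Sla, which encodes an adaptor that dampens antigen and cytokine receptor signalling, was at 18.7, 21.3 and 23.0 CPM against 14.2, 15.4 and 14.1 (0.52 ± 0.09, adjusted p 0.000128). Fam214a was at 6.45, 5.98 and 8 CPM against 3.68, 4.64 and 4.33 (0.68 ± 0.14, adjusted p 0.00148). Slc26a11, an anion transporter, was at 10.1, 8.24 and 8.64 CPM against 5.99, 6.51 and 5.82 (0.55 ± 0.12, adjusted p 0.00441). Each of these held its call in all 14 alternatives. Ap5s1, a subunit of an adaptor complex of endosomes, changed by 0.51 ± 0.11 (adjusted p 0.00330). Calls of the zinc finger gene Zfp605 (0.54 ± 0.13), Acad12 (0.53 ± 0.14) and Sfi1 (0.51 ± 0.13) were each lost in at least 1 fit that left out a library, at adjusted p-values up to 0.0660, 0.0927 and 0.139. Sfi1 shares exonic bases with Drg1 and Gm11399, and Zfp605 with Gm15484 on the opposite strand. Among clock genes Per3 (0.56 ± 0.13, adjusted p 0.00606), Bhlhe41 (0.31 ± 0.05, adjusted p 7.98e-05) and Nr1d2 (0.25 ± 0.07, adjusted p 0.0275) were higher and Nfil3 (−0.22 ± 0.05, adjusted p 0.0118) lower. Nr1d2 lost its call in 4 of 6 fits that left out a library (adjusted p up to 0.168) and Nfil3 without DiBASC2 replicate 1 or control replicate 3 (up to 0.0838). The core genes Clock (−0.08, adjusted p 0.532) and Arntl (0.02, adjusted p 0.962) were not called.

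**Figure D4:**
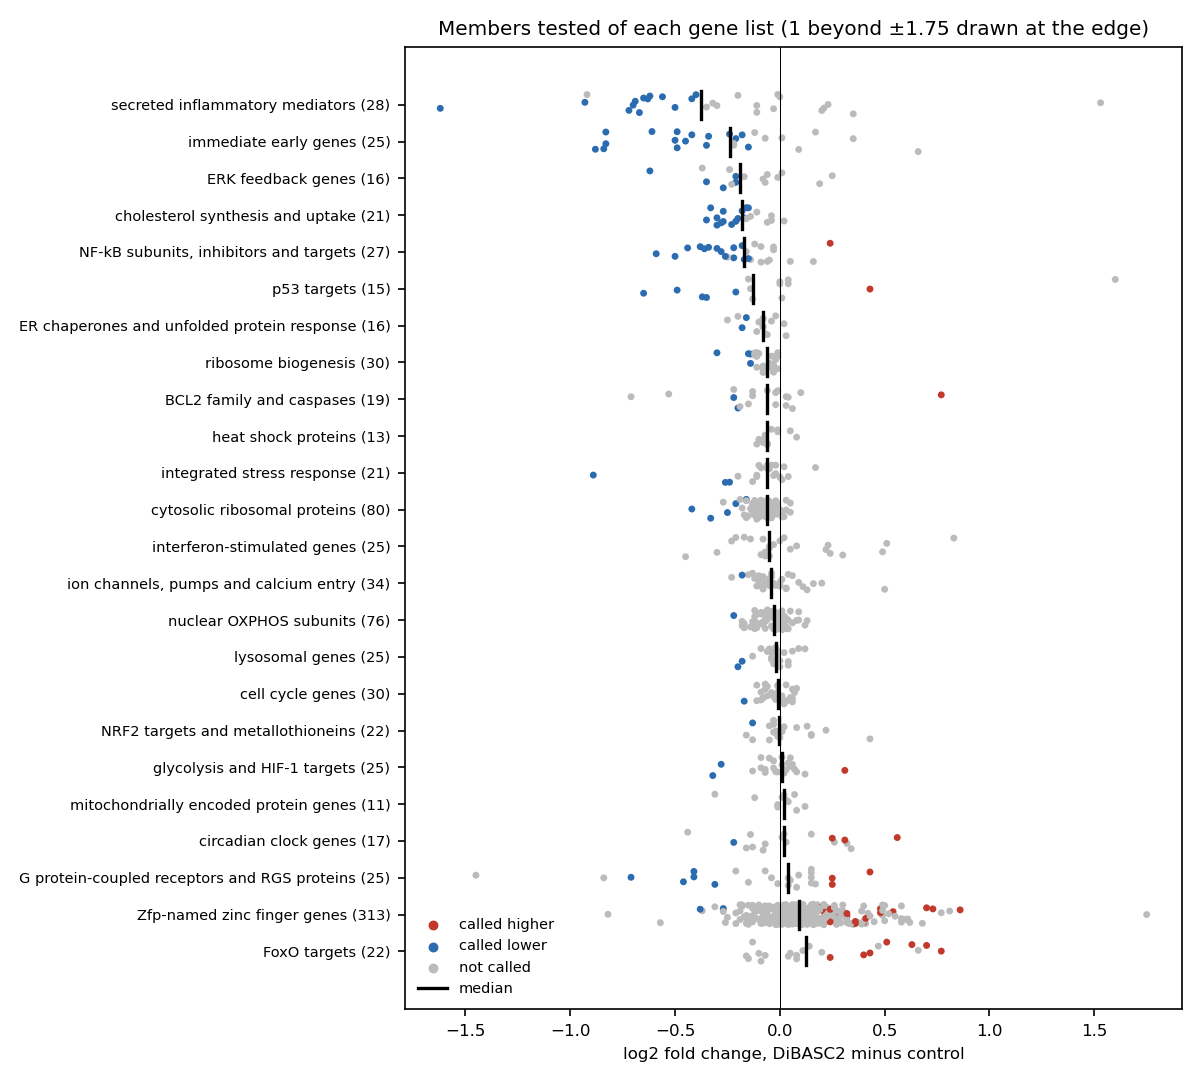
Log2 fold change of DiBASC2 minus control (x axis) of every tested member of 24 gene lists (y axis, number tested in brackets, ordered by median). Points are genes, blue called lower, red called higher and grey not called, and black bars are medians, from −0.38 for secreted inflammatory mediators to 0.12 for FoxO targets.

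DiBASC2 was then compared directly with the other dyes at the same time point. The 2 pairs were each adjusted over all genes. These comparisons share the DiBASC2 libraries with the comparison against control, and the concentrations of the dyes are not given in the sources used here, so doses could differ. Against Di-2-ANEPEQ, a styryl voltage dye of another chemical class, 1174 genes were called (8.95%), 719 lower (5.48%) and 455 higher (3.47%) in DiBASC2. This total was 610 without Di-2-ANEPEQ replicate 1, 652 without DiBASC2 replicate 1, 677 without Di-2-ANEPEQ replicate 2 and 754 without DiBASC2 replicate 2. Against Fura-2, an indicator of calcium, 574 genes were called (4.38%), 395 lower (3.01%) and 179 higher (1.36%). This total was 367 without DiBASC2 replicate 2 and 375 without Fura-2 replicate 2. With upper-quartile factors the share of called genes that were higher moved from 38.8 to 63.4% against Di-2-ANEPEQ and from 31.2 to 50.6% against Fura-2.

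The inflammatory genes were lower in DiBASC2 than in either dye. Of the 28 secreted mediators 13 were called lower against Di-2-ANEPEQ and 13 against Fura-2, and of the 25 immediate early genes 15 and 18. Over all genes 5.48% were called lower against Di-2-ANEPEQ and 3.01% against Fura-2. Cxcl2 was at 11.7, 8.90 and 8.39 CPM in Di-2-ANEPEQ and at 12.7, 12 and 11.9 in Fura-2, above every DiBASC2 library. Its log2 fold change was −1.22 against Di-2-ANEPEQ (adjusted p 3.41e-08) and −1.54 against Fura-2 (1.15e-10). For Ccl4 these changes were −0.97 (adjusted p 1.57e-08) and −1.01 (4.58e-09), for Egr3 −0.65 (8.51e-07) and −0.94 (2.35e-10), and for Ptgs2 −0.60 (1.80e-08) and −0.77 (6.45e-11). Dusp1, not called against control, was lower than in Di-2-ANEPEQ (−0.40, adjusted p 0.0106) and Fura-2 (−0.38, adjusted p 0.0263). These calls were lost in 3 and 5 of 14 alternatives, at adjusted p-values up to 0.0818 and 0.149, including the fits without DiBASC2 replicate 2 or 3. Fos was called in neither (−0.10 ± 0.09, adjusted p 0.533, and −0.09 ± 0.09, adjusted p 0.693).

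Of the raised genes, some were higher than in both dyes and others were not. Bmf was at 3.12, 4.85 and 5.49 CPM in Di-2-ANEPEQ and 3.63, 4.42 and 4.16 in Fura-2, and was called higher in DiBASC2 than in each (0.72, adjusted p 0.000871, and 0.84, adjusted p 0.000218). Neat1 was at 51.8, 49.8 and 54.1 CPM and 57.3, 64.4 and 70.2 CPM in these dyes (0.93, adjusted p 9.71e-11, and 0.63, adjusted p 2.46e-07). Sesn1 changed by 0.44 (adjusted p 3.32e-05) and 0.39 (0.000205), and S1pr1 by 0.54 (5.91e-06) and 0.55 (6.36e-06). Zbtb4 was at 8.78, 10.1 and 11.4 CPM in Di-2-ANEPEQ and 10.4, 10.7 and 10.7 in Fura-2, and the differences from DiBASC2 did not pass the test (0.24 ± 0.09, adjusted p 0.0698, and 0.17 ± 0.09, adjusted p 0.351). Ap5s1 (0.27 ± 0.10, adjusted p 0.0991, and 0.24 ± 0.11, adjusted p 0.242) and Zfp605 (0.24 ± 0.12, adjusted p 0.224, and 0.36 ± 0.12, adjusted p 0.104) did not pass against either dye. A p that misses the threshold does not show that the dyes act alike.

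Some genes lowered against control did not pass the test against the other dyes. Rgs1, which encodes a regulator of chemokine receptor signalling, was at 43.3, 42.2 and 37.7 CPM in DiBASC2 and 61.1, 54.3 and 55.2 in control (−0.46 ± 0.08, adjusted p 0.000239). It was at 40.4, 35.9 and 34.5 CPM in Di-2-ANEPEQ and 49.7, 47.5 and 38.5 in Fura-2, and the differences from DiBASC2 were not called (0.15 ± 0.08, adjusted p 0.259, and −0.13 ± 0.08, adjusted p 0.454). Of 80 tested ribosomal protein genes 5 were called lower against control (6.25%, against 3.64% of all genes) and 0 higher (median −0.06). Against Di-2-ANEPEQ 10 were called higher in DiBASC2 (against 3.47% of all genes) and 0 lower (against 5.48%). Against Fura-2 0 were called in either direction (against 4.38% of all genes). Rpl39 was at 654, 673 and 599 CPM in DiBASC2, 855, 738 and 833 in control and 570, 548 and 555 in Di-2-ANEPEQ. It was lower against control (−0.33 ± 0.07, adjusted p 0.00187) and not called against Di-2-ANEPEQ (0.20 ± 0.07, adjusted p 0.0571). Cholesterol genes fell between these cases, with 16 of 21 called lower against Di-2-ANEPEQ and 5 against Fura-2 (5.48 and 3.01% of all genes). Insig1 was lower than in Di-2-ANEPEQ (−0.22, adjusted p 0.000160) and not called against Fura-2 (−0.09 ± 0.04, adjusted p 0.193).

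**Figure D5:**
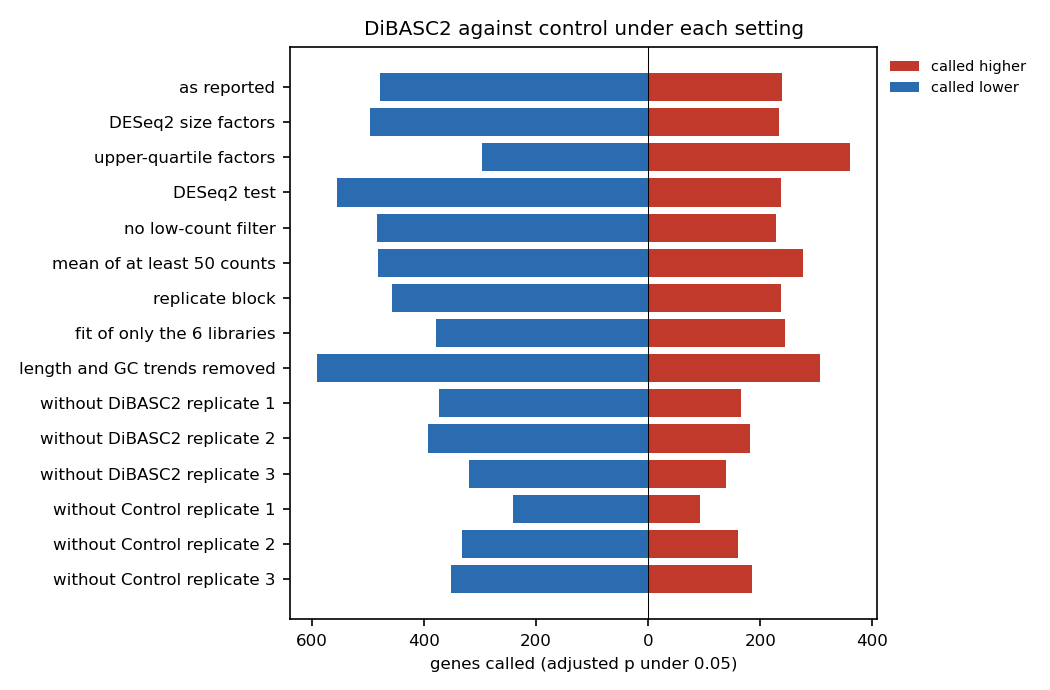
Genes called lower (blue, to the left) and higher (red, to the right) in DiBASC2 against control (x axis) as reported and under each of 14 alternatives (y axis). The total lies between 333 without control replicate 1 and 897 after correction for gene length and GC content, and of these settings only the upper-quartile factors give more higher than lower genes.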

How the data were processed

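Poly-A RNA of SIM-A9 cells was sequenced in 24 libraries, 8 groups of 3. The authors deposited 1 table of raw read counts, with 54838 Ensembl gene identifiers. STAR 2.5.4b and the build GRCm38.p6 are named in the submitters' processing notes; the counting tool, its strand setting and its treatment of multiply mapped reads are not given in the sources used here, so values of overlapping genes are uncertain. Symbols and positions are from GENCODE M21 (GRCm38), which matched 53947 identifiers with version and 54809 without; 29 did not match.

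The count analysis ran in edgeR 4.0.16 (R 4.3.3): filterByExpr (13116 genes), TMM factors, and a quasi-likelihood model with a mean per group over all 24 libraries (16 residual degrees of freedom). The 3 contrasts were tested two-sided with Benjamini-Hochberg adjustment over all genes. The standard error is the absolute log2 fold change divided by the square root of F. CPM are scaled by TMM. A group was taken as at the floor for a gene when its highest count in that group was 3 or fewer. Against control this held for a group in 3 of the 717 called genes. No error was computed for shares. The fit was tested on simulated data.

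Named were the 12 highest and 12 lowest called genes with a mean of at least 5 CPM and no overlap between groups, the 4 highest and lowest against each other dye, up to 5 called members per list, and 12 fixed genes. Other list members were named after their values were seen. Members and lists were chosen with earlier results of these data known. Alternatives used DESeq2 1.42.0, other scalings and filters, a replicate block, only the 6 libraries, leaving out each library, and, added later, splines (5 degrees of freedom) on length and GC. Sequences are from RefSeq (GRCm38.p6), with a promoter for 62 of the 88 named genes. The other groups were not analysed here beyond the values given. Some members of the lists are counted but not reported by name here.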

Additional observations from a re-analysis of the deposited data

How the results depend on the processing

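With upper-quartile factors 361 genes were called higher and 296 lower against control, 746 higher and 431 lower against Di-2-ANEPEQ, and 258 lower against Fura-2. Leaving out each library in turn gave 333 to 574 called genes against control (92 to 185 higher, 241 to 393 lower), 610 to 1284 against Di-2-ANEPEQ (211 to 508 higher, 376 to 776 lower) and 367 to 472 against Fura-2 (99 to 129 higher, 256 to 343 lower). Over the same fits the members called were 11 to 13 secreted inflammatory mediators, 9 to 12 NF-kB genes, 14 to 16 immediate early genes, 4 to 5 ERK feedback genes, 9 to 14 cholesterol genes, 3 to 7 FoxO targets and 8 to 15 Zfp-named genes. Fewer libraries leave less power; the cause of any further shift was not tested. Counts against control under the other alternatives were 730 with DESeq2 size factors, 791 in DESeq2's test, 712 with no low-count filter, 758 with a mean of at least 50 counts, 623 in the fit of only the 6 libraries and 897 after correction for gene length and GC content.

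With the replicate number as a block 694 genes were called against control, 237 higher and 457 lower, 1110 against Di-2-ANEPEQ and 558 against Fura-2. Deviations of same-numbered DiBASC2 and control libraries correlated at −0.005, −0.031 and −0.074, which gives no sign of pairing by number. Counting error weakens such correlations, so whether the numbers pair the libraries remains unknown. Of 86 named genes called against control, 62 kept the call under all alternatives, 24 lost it in at least 1 fit that left out a library, and 0 of the 88 named genes were reversed.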

Other observations

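Among genes of survival and the p53 response the called members went mostly down. Of 15 tested p53 targets 5 were called lower (33.3%, against 3.64% of all genes) and 1 higher (6.67%, against 1.82%). The lower ones include Btg2, which is also on the list of immediate early genes. Fas, a death receptor, was at 4.54, 5.70 and 5.69 CPM in DiBASC2 and 7.86, 8.13 and 9.02 in control (−0.65 ± 0.13, adjusted p 0.000821). Mdm2, the ubiquitin ligase of p53, was at 40.1, 40.8 and 44.6 CPM against 56.3, 50.9 and 52.7 (−0.35 ± 0.05, adjusted p 2.53e-05), and Plk2 changed by −0.37 ± 0.04 (adjusted p 1.86e-07). Cdkn1a, the best known target, was not called (−0.14, adjusted p 0.136), and Sesn1 was the member called higher. Of 19 tested BCL2 family and caspase genes 2 were called lower (10.5%, against 3.64% of all genes) and 1 higher (5.26%, against 1.82%). The higher gene was Bmf (0.77). The survival gene Mcl1 was lower, at 394, 411 and 388 CPM against 463, 456 and 455 (−0.20 ± 0.03, adjusted p 5.64e-05). Bcl2l1 was the other lower member (−0.22 ± 0.06, adjusted p 0.0230), and lost its call in 5 of 14 alternatives.

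Of 21 tested genes of the integrated stress response 3 were called lower (14.3%) and of 16 ER chaperones 2 (12.5%), against 3.64% of all genes, and 0 of either were higher. Gdf15, a stress-induced cytokine, was at 1.76, 2.22 and 2.44 CPM against 4.23, 3.36 and 4.38 (−0.89 ± 0.21, adjusted p 0.00726, and 0.0511 without DiBASC2 replicate 1). Atf4 changed by −0.26 ± 0.04 (adjusted p 0.000225), while Ddit3 (−0.20, adjusted p 0.568) and Trib3 (0.04, adjusted p 0.926) were not called. Of 13 tested heat shock genes edgeR called 0 (2 lower and 0 higher at an unadjusted p under 0.05, and 0 in DESeq2). Of 76 nuclear genes of oxidative phosphorylation 1 was called lower (1.32%, against 3.64% of all genes). Of 25 tested glycolysis genes and HIF-1 targets 2 were called lower and 1 higher (median 0.01), against 3.64 and 1.82% of all genes. The glucose transporter Slc2a1 was at 159, 174 and 159 CPM against 208, 201 and 205 (−0.32 ± 0.04, adjusted p 5.73e-07), and Vegfa was lower as well (−0.28 ± 0.06, adjusted p 0.00207). Ndrg1 was the member called higher (0.31 ± 0.06, adjusted p 0.00124), and it kept the call in all 14 alternatives. The glycolytic enzymes Ldha (−0.05, adjusted p 0.508) and Gapdh (0.07, adjusted p 0.443) were not called. Of 34 channels, pumps and calcium entry genes edgeR called 1 lower (2.94%, against 3.64% of all genes) and DESeq2 3. The gene called by edgeR was the calcium pump Atp2a2, at 469, 494 and 521 CPM against 555, 566 and 554 (−0.18 ± 0.04, adjusted p 0.00378).

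Egr1, a founding member of the EGR family, was not tested: its highest count in any of the 24 libraries was 3, with 15 counts in all and 14 libraries at 0, while Egr2 and Egr3 were expressed.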
